A study of Mus musculus with 6 samples.

Results

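Itm2a, Ipcef1, Calcoco1, Drc1, Gpm6b and Clip3 are 6 genes whose RNA was lower in T cells lacking Cul5 than in control T cells, cultured under conditions that drive naive cells toward IL-9 secretion (Th9). They were chosen by the level of each gene in the same 3 control and 3 Cul5-deficient samples described here, so the difference between genotypes is given as a description and was not tested for them. They are 6 of the 12925 genes with enough counts to be tested, out of 22400 genes with any count. The WT group was naive CD4+ T cells of C57BL/6 Cul5fl/fl littermates without Cre, and the Cul5 cKO group was the same cells of Cul5fl/fl CD4-Cre mice, in which the Cd4 promoter drives Cre in T cells. Both groups carried the floxed Cul5 alleles, and only the Cul5 cKO group carried the Cre transgene, so Cre and loss of Cul5 cannot be told apart. Mice were 8 to 10 weeks old, and cells came from spleen and lymph nodes. Cells of both groups were stimulated for 48 h with anti-CD3 (2 µg/ml) and anti-CD28 (1 µg/ml) in the presence of IL-4 (20 ng/ml), TGF-β (2.5 ng/ml) and anti-IFN-γ (10 µg/ml), and poly-A RNA was sequenced as single-end 50 bp reads. Nothing in the labels or methods says whether the 3 samples of a group came from separate mice, so the p-values below measure only the spread between these samples, which may be technical.

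Cul5 is the scaffold of a family of ubiquitin ligases that use SOCS-box proteins to recognise their substrates, and it has been studied in T cells for its part in limiting cytokine signalling. The 6 genes belong to unrelated families. Itm2a encodes a type II membrane protein of the ITM2 (BRICHOS-domain) family that is expressed in T cells. Ipcef1 encodes a partner of the cytohesins, the exchange factors that activate the small GTPase Arf6. Calcoco1 encodes a receptor for selective autophagy of the endoplasmic reticulum, first described as a nuclear receptor coactivator. Drc1 encodes a subunit of the nexin-dynein regulatory complex of motile cilia. Gpm6b encodes a membrane proteolipid known mostly from neurons and glia. Clip3 (CLIPR-59) encodes a CAP-Gly protein of the trans-Golgi network that binds Akt.

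The sequence just upstream of the RefSeq start that lies nearest the start of the transcript holding most of each gene's counts is shown to place the 6 genes in the genome. Matches to 8 searched motifs, read on both strands, are in capitals. Each is printed 5′ to 3′ on the gene's own strand, from the GRCm38.p6 assembly, and stops before the annotated start. The windows were chrX:107403377-107403610 (minus strand, Itm2a), chr10:6980535-6980715 (minus strand, Ipcef1), chr15:102722179-102722428 (minus strand, Calcoco1), chr5:30281143-30281387 (plus strand, Drc1), chrX:166238693-166238910 (plus strand, Gpm6b) and chr7:30291445-30291694 (plus strand, Clip3). The Ipcef1 window lies inside the annotated span of that gene, because longer transcripts start further upstream, and the other 5 lie outside their genes.
Itm2a: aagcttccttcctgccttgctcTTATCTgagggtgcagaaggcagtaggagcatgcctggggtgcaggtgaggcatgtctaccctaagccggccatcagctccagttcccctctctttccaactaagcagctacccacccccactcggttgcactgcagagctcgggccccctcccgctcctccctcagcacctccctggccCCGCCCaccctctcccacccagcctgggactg
Ipcef1: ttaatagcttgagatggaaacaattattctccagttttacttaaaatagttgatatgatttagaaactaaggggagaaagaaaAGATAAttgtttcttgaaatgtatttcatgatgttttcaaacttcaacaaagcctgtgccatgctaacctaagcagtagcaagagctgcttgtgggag
Calcoco1: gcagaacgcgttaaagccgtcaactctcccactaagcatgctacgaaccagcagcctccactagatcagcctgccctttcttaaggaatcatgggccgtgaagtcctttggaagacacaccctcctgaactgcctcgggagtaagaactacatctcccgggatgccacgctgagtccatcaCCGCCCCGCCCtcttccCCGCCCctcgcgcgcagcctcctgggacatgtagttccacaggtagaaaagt
Drc1: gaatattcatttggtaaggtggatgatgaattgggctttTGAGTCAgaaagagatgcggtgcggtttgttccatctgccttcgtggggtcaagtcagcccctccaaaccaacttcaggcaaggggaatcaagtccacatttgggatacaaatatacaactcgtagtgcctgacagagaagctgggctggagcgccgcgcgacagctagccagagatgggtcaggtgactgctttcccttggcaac
Gpm6b: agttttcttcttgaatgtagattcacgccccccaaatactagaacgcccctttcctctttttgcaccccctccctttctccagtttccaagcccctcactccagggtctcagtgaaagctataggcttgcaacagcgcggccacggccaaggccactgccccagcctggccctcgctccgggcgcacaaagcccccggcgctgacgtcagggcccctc
Clip3: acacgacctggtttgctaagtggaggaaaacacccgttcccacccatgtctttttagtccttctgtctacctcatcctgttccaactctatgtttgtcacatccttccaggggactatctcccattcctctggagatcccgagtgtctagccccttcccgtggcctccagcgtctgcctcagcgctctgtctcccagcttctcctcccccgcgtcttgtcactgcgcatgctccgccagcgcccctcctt

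The motifs were searched in 300-base windows that run from 250 bases before to 50 bases after the start. GATA factors were searched as AGATAA, and AP-1 was searched as TGACTCA. The letters GGGCGG stood for the GC box, and the letters CACGTG stood for the E-box, which contains the hypoxia response core ACGTG. SMAD factors were searched as CAGACA. STAT factors were searched as TTCNNNGAA, and STAT6 was searched as TTCNNNNGAA. The GATA letters were in 2 of the 6 windows, those of Itm2a and Ipcef1, at 228 and 167 bases upstream of the start. They were in 11.2% of all 32851 mouse promoter windows of this length. The AP-1 letters were in the Drc1 window only, 211 bases upstream, against 5.20% of all windows. The GC box was in the Itm2a window, 48 bases upstream, and 3 times in the Calcoco1 window, at 69, 64 and 52 bases upstream, against 35.7% of all windows. None of the 8 motifs was in the Gpm6b or Clip3 window, and none of the 6 windows held the STAT, STAT6, E-box, hypoxia core or SMAD letters, which 8.30%, 6.95%, 7.15%, 19.6% and 21.0% of all windows held. The G and C content of the 300 bases was 62.0% for Itm2a, 38.7% for Ipcef1, 57.0% for Calcoco1, 54.3% for Drc1, 65.3% for Gpm6b and 59.0% for Clip3, around a median of 52.7% over all windows. The matches are letters only, and no binding was measured.

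The libraries held 3944803 to 23454552 estimated counts, the shallowest being WT replicate 3 and the other 5 holding 23111689 or more. For the comparison of genotypes, estimated counts were summed by gene and put through the quasi-likelihood test of edgeR, and a gene was called at a Benjamini-Hochberg adjusted p under 0.05. Of 12925 genes tested, 54 were called lower in Cul5 cKO, which is 0.418%, and 79 were called higher, which is 0.611%. Scaled by library size alone, 77 were called lower and 72 higher. Every Cul5 cKO sample lay below every WT sample in 1748 genes (13.5%). The median log2 fold change of all genes tested was -0.01. Cul5 itself was at 64.4, 69.3 and 65.0 CPM (counts scaled to a common library size after TMM normalisation) in WT and at 10.6, 14.2 and 13.1 CPM in Cul5 cKO, so 19.1% of the WT level was left. All 8 T cell markers were detected, with a summed level of 1786 to 1848 CPM in WT and 1666 to 1708 CPM in Cul5 cKO. Summed B cell markers ranged over 17.2 to 23.7 CPM (WT) and 14.5 to 55.6 CPM (Cul5 cKO), and summed myeloid markers over 6.11 to 10.6 and 5.39 to 14.4 CPM. Summed CD8 T cell markers ranged over 5.76 to 6.53 and 4.30 to 11.6 CPM. The NK cell, stromal and endothelial sums stayed at or below 2.94 CPM in every sample. In these bulk samples fewer cells expressing a gene and less RNA per cell cannot be told apart.

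All 6 genes were lower in every Cul5 cKO sample than in any WT sample, and 4 of them (Itm2a, Ipcef1, Calcoco1 and Drc1) were among the genes called lower. The number called was 0 without WT replicate 2, without WT replicate 3 or without Cul5 cKO replicate 3, and 6 by DESeq2 or with the replicate number as a block. By limma it was 1 on log2(TPM + 1) and 0 on log2(TPM + 0.1) or the authors' table. Because the choice used this contrast, nothing is read from these counts. Their mean levels spanned from 3.60 CPM (Clip3) to 159.2 CPM (Ipcef1) in WT. Compared per transcript length, in TPM (transcripts scaled for length and library size), the WT order was Itm2a (74.5 ± 3.93), Ipcef1 (45.9 ± 3.99), Calcoco1 (19.5 ± 2.96), Drc1 (11.05 ± 3.001), Clip3 (3.43 ± 0.928) and Gpm6b (2.02 ± 0.284; SD, n = 3). Neighbours in this order were separated by more than their SDs.

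**Figure D1:**
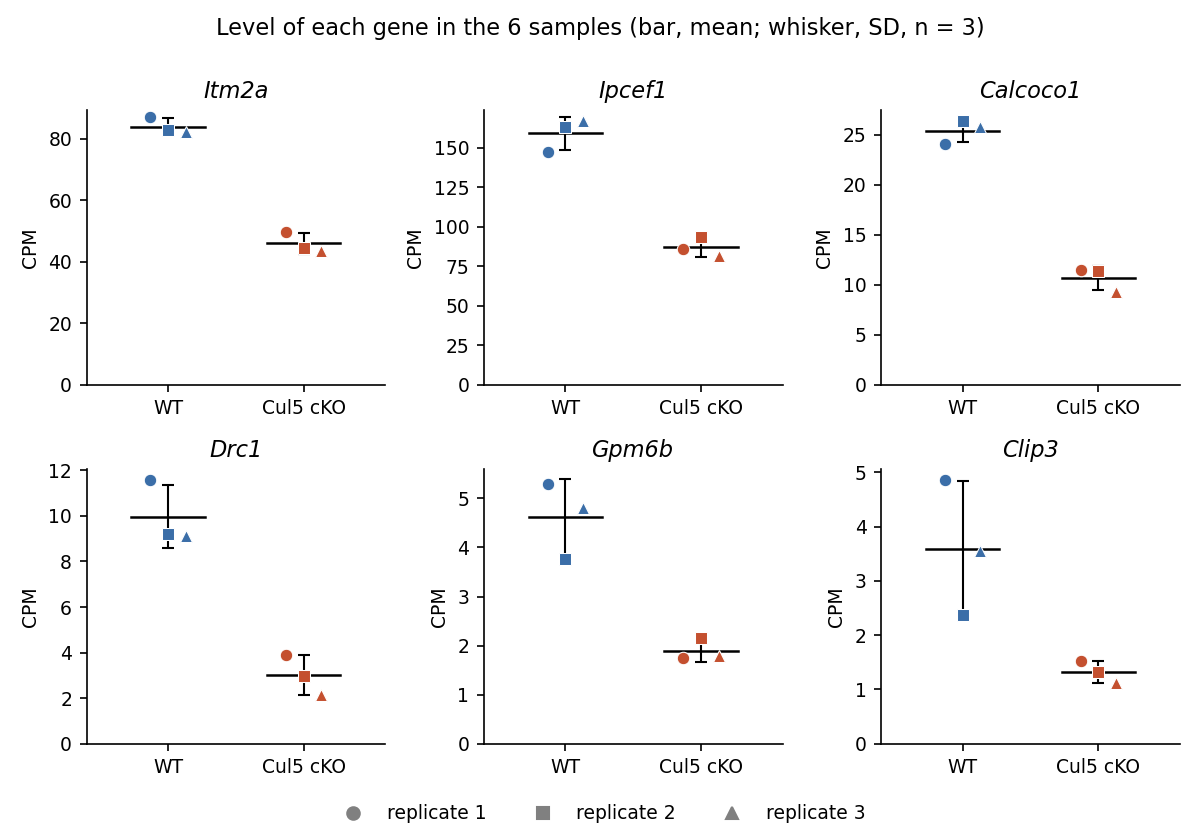
Level of each of the 6 genes in CPM (linear axis starting at 0) in the 3 WT and the 3 Cul5 cKO samples, with a point per sample, the marker giving the replicate number, a bar at the mean and a whisker for the SD (n = 3). In all 6 panels every Cul5 cKO point lies below every WT point, and in WT the spread relative to the mean is narrowest for Itm2a (83.9 ± 2.69 CPM) and widest for Clip3 (3.60 ± 1.25 CPM).

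Itm2a (ENSMUSG00000031239) lies on chromosome X, at 107397099 to 107403376 of GRCm38, on the minus strand. Its level was 87.0, 82.8 and 82.0 CPM in WT and 49.8, 44.3 and 43.5 CPM in Cul5 cKO. The groups did not overlap, and the lowest WT sample was 1.65 times the highest Cul5 cKO sample. The means were 83.9 ± 2.69 and 45.9 ± 3.39 CPM (SD, n = 3), so 54.7% was left, a log2 fold change of -0.87 (SE 0.075). The coefficient of variation of Itm2a was 3.2% in WT, the lowest of the 6 there, and 7.39% in Cul5 cKO. By mean TPM in WT, 16.9% of the genes tested were higher. The files hold 1 Itm2a transcript, so transcript use could not be compared.

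Ipcef1 (ENSMUSG00000064065; chromosome 10, 6885796 to 7052478, minus strand) was lower by the same proportion, from a higher level. It was at 147.7, 163.0 and 167.0 CPM in WT and at 85.8, 93.5 and 81.4 CPM in Cul5 cKO. The groups did not overlap, with means of 159.2 ± 10.2 and 86.9 ± 6.13 CPM, 54.6% left and a log2 fold change of -0.87 (SE 0.081). Oprm1 and Gm15536 overlap Ipcef1 on the opposite strand and reached at most 12 counts in a sample. The transcript Ipcef1-203 held 93.2 ± 0.530% of the gene's counts in WT and 93.0 ± 0.423% in Cul5 cKO (exact permutation test, two-sided, p = 0.7, where 0.1 is the smallest p that 3 against 3 samples allow).

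Calcoco1 (ENSMUSG00000023055; chromosome 15, 102706777 to 102722178, minus strand) was at 24.1, 26.3 and 25.8 CPM in WT and at 11.4, 11.3 and 9.25 CPM in Cul5 cKO. No samples overlapped, and the means of 25.4 ± 1.16 and 10.7 ± 1.23 CPM left 42.0% of the WT level, a 2.38-fold difference (log2 fold change -1.25, SE 0.116). On the TPM scale the difference was 2.91-fold, from 17.7, 17.9 and 22.9 TPM to 6.69, 7.497 and 5.88 TPM. WT replicate 3, the highest of these values, drew 24.0% of its 102 Calcoco1 counts from the shorter coding transcript Calcoco1-203, against 5.23% and 3.67% in the other WT samples. The main transcript, Calcoco1-201, held 72.3 ± 14.1% of the counts in WT and 78.4 ± 5.09% in Cul5 cKO (exact permutation test, two-sided, p = 0.8). The retained-intron transcript Calcoco1-208 shares a near-identical stretch of at most 151 bases with transcripts of 11 other genes, and held at most 7.1 counts in a sample.

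Drc1 (ENSMUSG00000073102; chromosome 5, 30281388 to 30366695, plus strand) showed the largest CPM fold of the 6, and the one that depended most on the scale. It was at 11.6, 9.21 and 9.11 CPM in WT and at 3.91, 2.98 and 2.13 CPM in Cul5 cKO. The groups did not overlap, and the means of 9.97 ± 1.39 and 3.01 ± 0.888 CPM left 30.2%, a 3.31-fold difference (log2 fold change -1.74, SE 0.249). The WT replicate 3 value rests on 36 counts, with an exact 95% Poisson interval of 6.38 to 12.6 CPM that covers counting error only. In TPM the samples were at 14.3, 10.4 and 8.45 in WT and at 7.76, 3.31 and 6.27 in Cul5 cKO. The TPM groups came close, the lowest WT sample being 1.09 times the highest Cul5 cKO sample, and the difference between means was 1.91-fold (11.05 ± 3.001 against 5.78 ± 2.27).

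The 2 Drc1 transcripts behaved unlike each other. The coding transcript Drc1-201 (2471 bases) was at 6.33, 5.40 and 4.84 TPM in WT and at 1.90, 1.65 and 0.823 TPM in Cul5 cKO, with no overlap. The non-coding transcript Drc1-202 (382 bases, chromosome 5, 30354139 to 30356320) was at 8.001, 4.97 and 3.61 TPM in WT and at 5.86, 1.65 and 5.45 TPM in Cul5 cKO, and these groups overlapped. Drc1-202 held at most 24.3 counts in a sample, so a few reads on a short transcript carry much of the gene's summed TPM. By counts, Drc1-201 held 91.1%, 93.3% and 92.5% of the gene in WT and 80.2%, 92.7% and 65.2% in Cul5 cKO, a difference of -12.9 percentage points (exact permutation test, two-sided, p = 0.3).

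**Figure D2:**
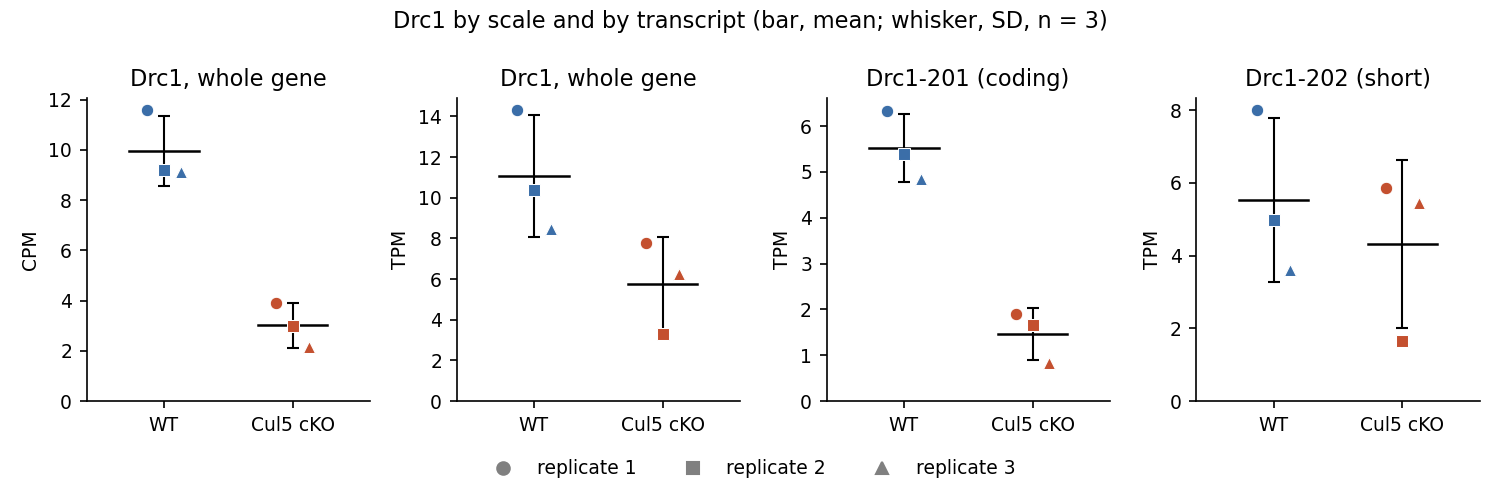
Drc1 by scale and by transcript in the 3 WT and 3 Cul5 cKO samples, on linear axes starting at 0, with a point per sample (the marker gives the replicate number), a bar at the mean and a whisker for the SD (n = 3). The coding transcript Drc1-201 separates the groups in TPM, from 4.84 to 6.33 in WT against 0.823 to 1.90 in Cul5 cKO, while the short Drc1-202 runs from 3.61 to 8.001 TPM in WT and from 1.65 to 5.86 TPM in Cul5 cKO, so that the groups overlap.

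Gpm6b (ENSMUSG00000031342; chromosome X, 166238911 to 166388988, plus strand) was at 5.29, 3.76 and 4.81 CPM in WT and at 1.74, 2.15 and 1.78 CPM in Cul5 cKO. The lowest WT sample was 1.75 times the highest Cul5 cKO sample. The means were 4.62 ± 0.782 and 1.89 ± 0.226 CPM, 40.8% was left, and the log2 fold change was -1.28 (SE 0.237). The counts behind these levels ran from 19 in WT replicate 3, with an exact 95% Poisson interval of 2.89 to 7.51 CPM, to 124 in WT replicate 1. Counts of Gpm6b were assigned to different transcripts from sample to sample. Gpm6b-209, the transcript with most counts, held 53.6%, 64.5% and 58.1% of the gene in WT, and 67.5%, almost none and 41.9% in Cul5 cKO (exact permutation test, two-sided, p = 0.4). In Cul5 cKO replicate 2 another transcript, Gpm6b-202, held 24.8 counts.

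Gpm6b is best known from glia, and the sum of glial cell markers was also lower in Cul5 cKO, with Gfap the highest of them in every WT sample. The summed level of the 8 markers was 3.76, 1.77 and 1.52 CPM in WT and 0.521, 0.876 and 0.534 CPM in Cul5 cKO, without overlap. Of all single genes tested, 13.5% did not overlap in this direction, and 3 counts in WT replicate 3 correspond to 0.759 CPM. Mog was at 0 in every sample, Sox10 and Olig1 never passed 1 count and S100b never passed 2. Gfap had 68, 21 and 4 counts in WT and 6, 2 and 4 in Cul5 cKO. Mobp overlapped, with 14, 10 and 2 counts in WT and 4, 9 and 7 in Cul5 cKO. Mag had 4, 7 and 0 counts in WT and 2, 1 and 1 in Cul5 cKO. Cldn11 went the other way, with 0, 1 and 0 in WT and 0, 8 and 0 in Cul5 cKO. The cultures were started from isolated naive CD4+ T cells. The part of such RNA in the Gpm6b difference was not tested. Without WT replicate 1, the sample with most Gfap counts, the log2 fold change of Gpm6b was -1.15. The choice of the gene fixed the sign of that value, so it describes size only. The related gene Gpm6a had 72 counts in all and was not tested. Most of them were in WT replicate 1, with 2.78, 0.130 and 0.506 CPM in WT and 0.0434, 0 and 0.0445 CPM in Cul5 cKO. Drc1 is best known from ciliated cells, and the summed ciliated cell markers were at 3.54 to 4.95 CPM in WT and 2.93 to 3.87 CPM in Cul5 cKO, ranges that overlapped. Dnah5 was at 0 in every sample and Foxj1 had at most 13 counts.

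Clip3 (ENSMUSG00000013921; chromosome 7, 30291728 to 30308367, plus strand) was at 4.87, 2.38 and 3.54 CPM in WT and at 1.52, 1.31 and 1.11 CPM in Cul5 cKO. WT replicates were widely spread, with a coefficient of variation of 34.6%, and the lowest of them was 1.57 times the highest Cul5 cKO sample. The means of 3.60 ± 1.25 and 1.32 ± 0.204 CPM left 36.6% (log2 fold change -1.45, SE 0.332). WT replicate 3 held 14 Clip3 counts, with an exact 95% Poisson interval of 1.94 to 5.94 CPM. Clip3-201 held 80.7 ± 5.87% of the gene's counts in WT and 76.0 ± 1.36% in Cul5 cKO (exact permutation test, two-sided, p = 0.4). Over the 5 transcript shares compared, the adjusted p ran from 0.667 to 0.8.

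With replicate 1 of both genotypes left out, 1153 genes were called in place of 133. Leaving out WT replicate 1 alone gave 316 calls, and leaving out Cul5 cKO replicate 1 alone gave 123. In replicates 2 and 3 the log2 fold changes of the 6 genes were -0.91 for Itm2a, -0.91 for Ipcef1, -1.34 for Calcoco1, -1.84 for Drc1, -1.08 for Gpm6b and -1.21 for Clip3. Their sign was fixed by the choice of the genes, so these values describe size only. The authors' own gene-level table of log2 CPM, which the choice used, held all 6 genes. The Drc1 values there were 3.53, 3.24 and 3.15 in WT and 1.81, 1.63 and 0.70 in Cul5 cKO, and the Clip3 values were 2.05, 1.25 and 2.03 against 0.93, 0.72 and 0.71.

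**Figure D3:**
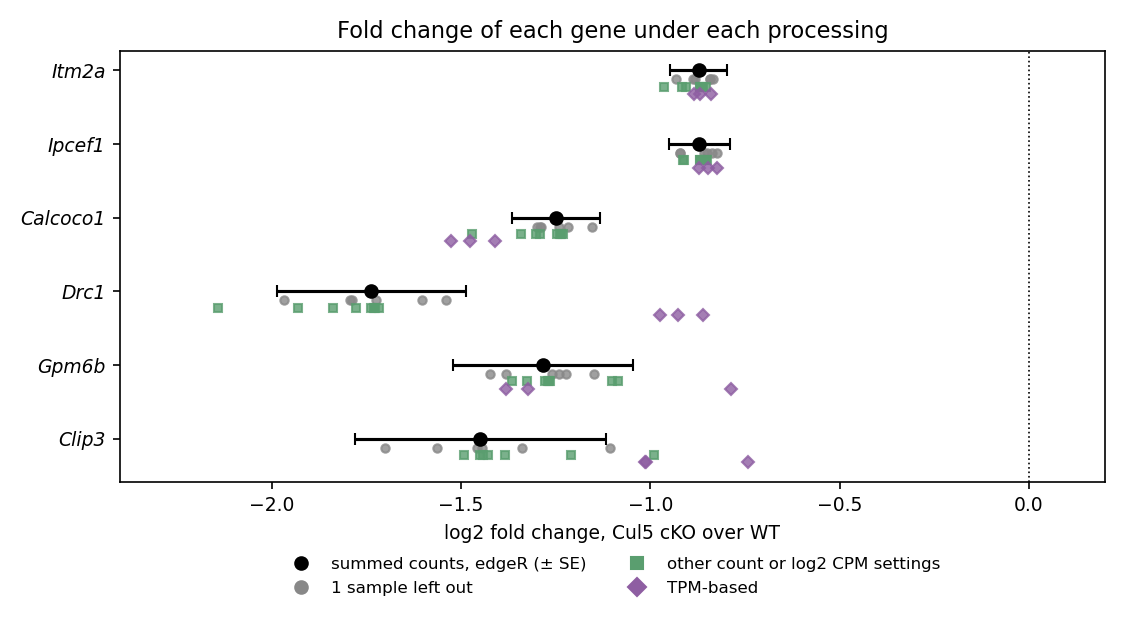
Log2 fold change (Cul5 cKO over WT) of each gene under each processing tried, with the dotted line at 0, black points for edgeR on summed counts (± SE), grey points with 1 sample left out, green squares for other count or log2 CPM settings and purple diamonds for TPM-based settings. All points lie below 0, as the choice of the genes fixed. Drc1 spans from -2.14 to -0.86 and Itm2a from -0.96 to -0.83.

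Related genes were counted from 6 lists of the families and pathways of the 6 genes and from a list of naive and quiescence genes of T cells, none of which contained the 6 themselves. Of 84 listed genes 72 were tested. 2 were called lower, against 0.418% of all genes, and 1 was called higher, against 0.611%. Cyth3, a cytohesin and so a potential partner of Ipcef1, was at 65.2, 64.6 and 64.0 CPM in WT and at 40.4, 42.9 and 37.9 CPM in Cul5 cKO. It was lower in 3 of 3 samples, with a log2 fold change of -0.68 (SE 0.069, edgeR quasi-likelihood test, adjusted p = 0.0145). The adjusted p ran from 1.31e-08 to 0.0834 over the alternative settings, and the call was lost without WT replicate 2, without WT replicate 3 or without Cul5 cKO replicate 3. Cyth3 was the gene called among 15 tested in the Arf6 and cytohesin list, whose median log2 fold change was -0.07.

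Tex264, another receptor for selective autophagy of the endoplasmic reticulum, was higher in Cul5 cKO. It was at 44.7, 50.01 and 50.4 CPM in WT and at 70.7, 63.5 and 72.8 CPM in Cul5 cKO (log2 fold change 0.52, SE 0.083, edgeR adjusted p = 0.0410), and higher in 3 of 3 samples. Its adjusted p ran from 0.00021 to 0.329 over the alternatives, and leaving out any library except WT replicate 1 lost the call. A further receptor of this kind, Ccpg1, named here after its values were seen, was at 23.1, 20.9 and 27.8 CPM in WT and at 18.6, 15.3 and 16.4 CPM in Cul5 cKO (log2 fold change -0.49, edgeR adjusted p = 0.112), and was called only with the replicate number as a block among the settings tried. The 17 tested genes of the autophagy list had a median of -0.02.

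The naive and quiescence list, which includes Ccr7 and Tcf7, held Lef1, a transcription factor of naive T cells. The level of Lef1 was 243, 270 and 283 CPM in WT against 190, 179 and 164 CPM without Cul5 (log2 fold change -0.58, SE 0.085, edgeR adjusted p = 0.0306, lower in 3 of 3 samples). The adjusted p of Lef1 ran from 6.08e-07 to 0.172, and it was not called without WT replicate 2, WT replicate 3, Cul5 cKO replicate 2 or Cul5 cKO replicate 3. All 15 genes of that list had a log2 fold change below 0, with a median of -0.41 against -0.01 over all genes tested. The list was chosen with earlier results of these data known, and it was not tested as a set. Klf2, Tcf7, Bach2, Btg2 and Satb1 were each lowest in replicate 1 within both genotypes, so the genes are not separate observations. Of all genes tested, 13.5% had every Cul5 cKO sample below every WT sample. In this list that held for Lef1, Ccr7 and Foxo1, and the groups overlapped for every other gene of the list. In Klf2 and Tcf7, for example, WT replicate 1 (40.1 and 326 CPM) lay below the highest Cul5 cKO sample (47.5 and 370 CPM). By edgeR, 7 of them had an unadjusted p under 0.05 and a lower level, against 10.4% of all genes tested, and 0 had one and a higher level, against 10.9%.

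Another 3 lists, those of the ITM2 family, the nexin-dynein regulatory complex and the CAP-Gly and plus-end proteins, had 0 genes called by edgeR, and limma called 0 in every list. In the ITM2 family, Itm2b (log2 fold change -0.09, adjusted p = 0.607) and Itm2c (-0.17, adjusted p = 0.339) were the 2 tested, and 0 had an unadjusted p under 0.05 or were called by DESeq2. Of the 11 listed nexin-dynein regulatory complex genes 4 were tested, with 0 at an unadjusted p under 0.05 and 0 called by DESeq2. Gas8 was at 0.32 (edgeR adjusted p = 0.374) and Drc3 at -0.30 (edgeR adjusted p = 0.669), and Ccdc65 and Tcte1 had 0 counts in every sample. In the CAP-Gly and plus-end list of 18 tested genes, 2 were lower and 1 higher at an edgeR unadjusted p under 0.05. Of all genes tested, 10.4% were lower and 10.9% higher at that threshold. DESeq2, which called 757 genes and gave an unadjusted p to 22353, called 1 of the list, Akt1, the kinase that Clip3 binds. Akt1 was at a log2 fold change of 0.26 (edgeR adjusted p = 0.0694). Mapre3, a microtubule plus-end protein, was at -0.67 (edgeR adjusted p = 0.180). Beside the median of -0.01 over all genes, the medians were -0.13 for the ITM2 family, -0.21 for the nexin-dynein regulatory complex and -0.04 for the CAP-Gly list.

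**Figure D4:**
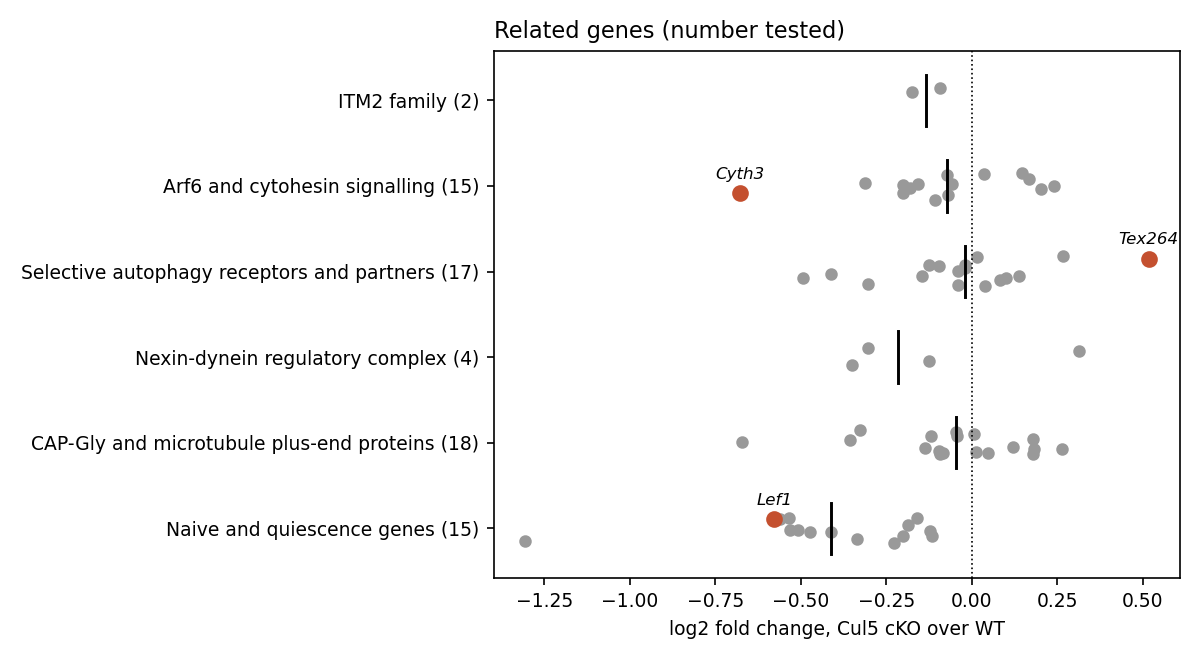
Log2 fold change (Cul5 cKO over WT) of each tested gene in 6 lists of related genes, with the number tested beside each list name, the dotted line at 0, a vertical bar at the median of each list, and the called genes in orange with their names. The called genes are Cyth3 (-0.68) and Lef1 (-0.58) below 0 and Tex264 (0.52) above it, while the 15 naive and quiescence genes all lie below 0.

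The nearest protein-coding genes on either side of the 6 were compared to see whether the difference reached beyond each gene. Of 12 neighbours 7 were tested. By edgeR 0 were called, against 0.418% of all genes tested called lower and 0.611% called higher, and DESeq2 and limma called 0. By edgeR 1 had an unadjusted p under 0.05, with a lower level. Of all genes tested, 10.4% had one and a lower level and 10.9% had one and a higher level. That gene was Gpr174, a G protein-coupled receptor 100329 bases from Itm2a (log2 fold change -0.29, unadjusted p = 0.0109 and edgeR adjusted p = 0.132). It was called in replicates 2 and 3 alone (edgeR adjusted p = 0.0387) and with the replicate number as a block (edgeR adjusted p = 0.0444). These settings called 1153 of 13055 and 848 of 12925 genes. Ofd1, 1044 bases from Gpm6b, was at -0.10, and Alkbh6, 349 bases from Clip3, was at -0.13. Otof, 366 bases from Drc1, had 9 counts in all 6 samples together and was not tested. The others tested were Cnksr3 beside Ipcef1 (-0.06), Atp5g2 beside Calcoco1 (0.13), Selenoi beside Drc1 (0.19) and Gemin8 beside Gpm6b (0.06).

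The genes whose pattern over the 6 samples was most like that of each of the 6 were found among 11614 genes with a mean of at least 1 CPM, by the root mean square difference of log2 CPM centred on each gene's own mean. This is a description over 6 samples that share depth and replicate structure. The centring spans both genotypes, so the difference that chose the 6 genes is part of the distance. A gene with a fold change of similar size is therefore near by construction, as with Il9r (log2 fold change -1.55) beside Clip3 (-1.45). Shared regulation was not tested. For Itm2a they were Cfap77 (0.0303) and Smtn (0.0931), and for Ipcef1 they were Zfp712 (0.0420) and Trim12c (0.0749). Calcoco1 was nearest to Gsta4 (0.0866) and Gprasp2 (0.113), and Drc1 to Adamtsl2 (0.142) and Capn3 (0.146). Gpm6b was nearest to Trbj1-3 (0.0628) and Rbm44 (0.0948). Clip3 was nearest to Il9r, the receptor gene for IL-9 (0.167), with means of 5.41 ± 2.36 CPM (WT) and 1.87 ± 0.253 CPM (Cul5 cKO), and to St8sia4 (0.189). Among the 6, the nearest match was closest for Itm2a and loosest for Clip3.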

How the data were processed

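RNA of 6 Th9 cultures was pseudo-aligned by the authors with kallisto 0.46.2 to Ensembl GRCm38 transcripts, and the deposited files give estimated counts and TPM per transcript. A second deposited table holds log2 CPM per gene, made by the authors with edgeR 3.34.0, beside fold changes and p-values of their comparison, which were not used. Here the estimated counts were summed by gene with GENCODE vM21 (116640 of 119414 transcripts matched, 97.7%) and rounded. Genes were filtered with filterByExpr, normalised by TMM and compared by edgeR's quasi-likelihood test (edgeR 4.0.16, R 4.3.3) with Benjamini-Hochberg adjustment over 12925 genes, called at 0.05. limma 3.58.1 and DESeq2 1.42.0 were used as alternatives. The biological coefficient of variation was 16.1%. Transcript shares were compared by exact permutation over samples. Intervals are exact Poisson, at 95%, and cover counting error only. The scripts were tested on simulated data.

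The 6 genes and all lists were chosen with earlier results of these data known. Named genes are the 6, Cul5, called genes of the lists (or, in lists with none called, the 2 of lowest unadjusted p), the nearest protein-coding gene on each side, and the 2 genes nearest in pattern with a mean of at least 1 CPM. Cytokine and antibody amounts come from the labels. Depth was 3944803 to 23454552 estimated counts, and 3 counts correspond to 0.128 to 0.759 CPM. Promoter windows are those of RefSeq for GRCm38.p6. The results of some listed genes are not reported here.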

Additional observations from a re-analysis of the deposited data

How the results depend on the processing

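The 6 genes gave 101 values over 17 alternatives (Clip3 could not be fitted after thinning), of which 14 moved by more than the replicate SD. All 101 were below 0, a sign that the choice of the genes fixed. The number of genes called moved most. Against 133, DESeq2 called 757, counts scaled from TPM 59, limma on log2(TPM + 0.1) 1, limma on log2(TPM + 1) 17, limma on the authors' log2 CPM table called 4, no low-count filter 228, and replicates 2 and 3 alone 1153. Leaving out 1 sample gave 2 to 316 calls (2 when either WT replicate 2 or WT replicate 3 was dropped, 3 when it was Cul5 cKO replicate 3, 45 when it was Cul5 cKO replicate 2, 123 when it was Cul5 cKO replicate 1, and 316 when it was WT replicate 1). Of the related genes, 3 were called, against 6 by DESeq2, 1 on scaled counts, 0 by limma on either TPM scale or on the authors' table, 13 in replicates 2 and 3 alone, and 0 to 6 with 1 sample left out. The causes were not tested. The direction turned for Itm2b (0.0159 in the authors' table, -0.15 to 0.0048 with 1 sample left out), Cnksr3 (-0.16 to 0.0459), Gemin8 (-0.0454 to 0.19), the Ipcef1-203 share (0.209 percentage points in replicates 2 and 3, -0.379 to 0.158 with 1 sample left out) and the Calcoco1-201 share (-1.77 to 11.9). The shallow WT replicate 3 limits Drc1, Gpm6b and Clip3 to 36, 19 and 14 counts there.

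With the replicate number as a replicate block, 848 genes, 9 related genes and 1 neighbouring gene, Gpr174, were called. The correlations of same-numbered samples' deviations were 0.342, 0.194 and 0.0238. The third was under 0.1, and WT replicate 3 correlated better with Cul5 cKO replicate 2 (0.0734), so the samples were treated as sharing only a number. Pairs of a replicate 1 sample with a differently numbered sample of the other genotype ran from -0.308 to -0.0795. WT replicate 3 is the shallowest library (3944803 estimated counts), which limits its correlations, so these values cannot settle whether the samples were paired.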
